A study of Arabidopsis thaliana with 12 samples.

Results

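The heat response of QK seedlings was measured on 4 of the 12 arrays of the series: 2 from QK at 37 °C for 1 h and 2 from QK left at 22 °C. The QK line of Arabidopsis thaliana lacks the HsfA1 factors, the heat shock factors of class A1, according to published work on it. It carries mutant alleles in a background mixed from the accessions Col-0 and Ws, so that no single accession is its exact wild type. The labels give neither the alleles nor the number of seedlings behind an array. The groups used were heated QK, QK at 22 °C, heated Ws and Ws at 22 °C, with 2 biological replicates each. All seedlings were 7 days old and had grown on sugar-containing plates. None of the 4 class A1 factor genes had a probe set of its own among those analysed (0 of 4), so the loss was not checked here.

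Class A1 heat shock factors are transcription factors that cells hold inactive until proteins begin to unfold. Once active, they bind heat shock elements in promoters and switch on small heat shock proteins, HSP70 and HSP90 chaperones and their co-chaperones. They also induce further heat shock factors that carry the response onward. Misfolding inside the endoplasmic reticulum is read by a separate system in plants, built on membrane-bound bZIP factors and the IRE1 ribonuclease. The comparison asks which RNA levels still move with heat when the class A1 factors are missing.

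The deposited values are linear signal intensities, 1 per probe set and array. The medians of the 4 QK arrays lay between 82.8 and 87.3. A probe set was tested when it exceeded the 35th percentile of its array, a signal of 43.54 to 47, in at least 2 of the 4 QK arrays. Of 18465 probe sets 12488 passed, of which 6609 had exactly 1 gene, for 6557 genes in all. At the edge of the filter, 922 probe sets passed on exactly 2 arrays and 757 failed with 1. Through the 2 heated arrays alone 268 passed, of which 82 were called raised, and through the 2 control arrays alone 263 passed, of which 68 were called lowered. Such probe sets had to differ, so these counts are given as a description. Changes are differences in log2(signal + 16), folds are of the signal plus 16, and "raised" and "lowered" mean an adjusted p under 0.05 in limma with at least a 2-fold change. The arrays labelled Col-0 replicate 2 went against their labels: the signal of AT2G29500, a small heat shock protein gene, was 21.2 on the one labelled heat and 7744.4 on the one labelled control. Col-0 was left out for that reason.

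Heat changed RNA levels in QK in both directions. In heated QK 275 of 12488 probe sets were raised (2.2%) and 449 were lowered (3.6%). The increases were the larger changes: 109 raised probe sets had risen at least 4-fold and 17 at least 16-fold, against 21 lowered at least 4-fold and 0 lowered at least 16-fold. Counted by gene, 127 of 6557 were raised (1.94%) and 202 were lowered (3.08%). Across all tested probe sets the changes of the 2 pairs had a Pearson correlation of 0.74, a description, since probe sets are not replicates. The median change was -0.01 in replicate pair 1 and 0.01 in pair 2. The scaling of the deposited signals is not known, so a general shift between heat and control may have been removed beforehand.

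**Figure D1:**
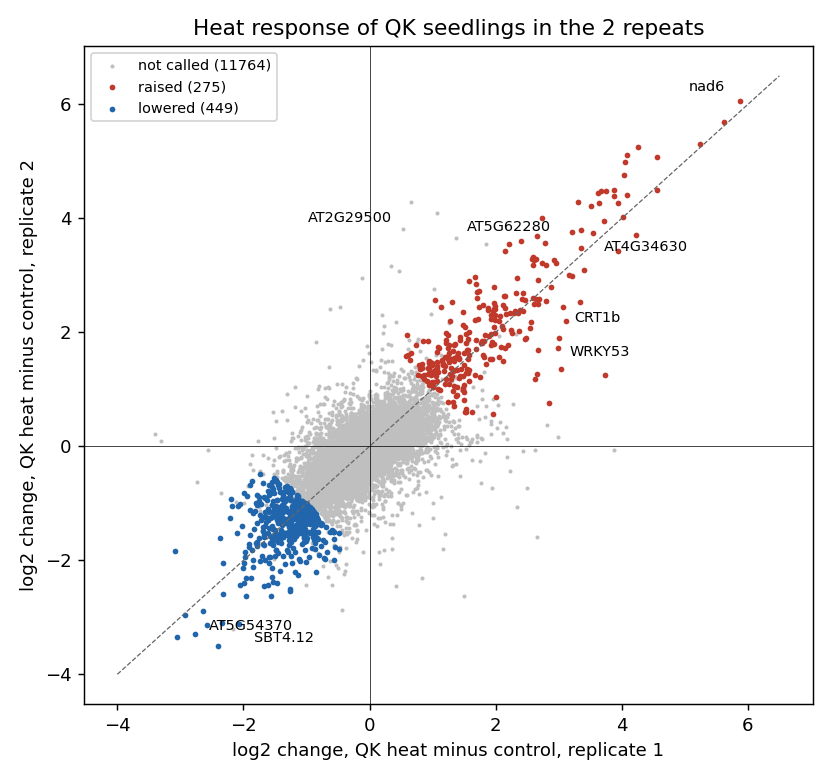
Change with heat in QK seedlings, as log2(signal + 16) in heat minus control, in replicate 1 (x axis) and replicate 2 (y axis), 1 point per probe set, with the diagonal dashed. The 275 raised and 449 lowered probe sets are coloured, and were called from these same replicates. The mitochondrial gene nad6 lies at the far upper right, and AT2G29500 and AT5G62280 changed far more in replicate 2.

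Most of the 10 highest called changes in heated QK were those of genes of the mitochondrial genome, which encodes parts of the respiratory chain. Of 9 tested mitochondrial genes 9 were raised, where 1.94% of all genes were, but 7 of them passed the filter only through the heated arrays and so had to differ. The other 2, cox1 and nad4, were bright enough at 22 °C to pass without that. Probe sets that failed the filter moved little: nad7 had signals of 15.2 and 15.3 in heated QK, against 12 and 11.2 at 22 °C, and 3 further probe sets of nad1 stayed at 8.3 to 19.6 in heated QK. nad6, a subunit of complex I, had signals of 1702.7 and 1650.5 in heated QK, against 13.4 and 9.1 in QK at 22 °C. Its change was log2 5.96 (SE 0.138, adjusted p = 1.76e-05), in a direction that the filter had fixed beforehand. With control signals this far under the cut of the filter, the size of this change and of those of the other dim mitochondrial genes depends on the 16 added before the logarithm.

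Other complex I subunits behaved the same way. nad5 had signals of 971.2 and 1023.4 in heated QK, against 25.7 and 14.8 at 22 °C, a change of log2 4.82. The tested nad1 probe set had signals of 631.2 and 1113.7, against 22.9 and 19.4 (log2 4.53). The changes of nad4L and nad9 were log2 4.14 and 4.02. Among the subunits of cytochrome c oxidase, cox1 had signals of 1988.4 and 1824.8 in heated QK, against 115.2 and 79.0 at 22 °C. cox2 changed by log2 4.18, with 666.3 and 863.7 in heated QK against 30.6 and 23.0 at 22 °C. The smallest rises were those of matR, which encodes a maturase for intron splicing (log2 2.35), and nad4 (1.03). Every heated QK array was brighter than every QK control array for each of these genes. Except for cox1 and nad4, the filter had fixed this beforehand.

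A stretch of chromosome 2 from AT2G07660 to AT2G07800, known to hold an inserted copy of mitochondrial DNA and set apart after its values were seen, moved with the mitochondrial genes. In that stretch 15 of 16 tested genes were raised, where 1.94% of all genes were, but 13 of the 16 passed the filter only through the heated arrays and so had to differ. The other 3, AT2G07741, AT2G07707 and AT2G07751, were raised. AT2G07722 had signals of 567.3 and 1024.3 in heated QK, against 14.5 and 11.4 at 22 °C, and changed by log2 4.75. AT2G07741 and AT2G07707 changed by log2 4.40 and 4.11, and AT2G07674 by 2.33. The probe sets for these loci and several mitochondrial genes can bind RNA from either copy, so the signal cannot be assigned to one of them. Plastid genes, which belong to the other organelle genome, gave 0 raised and 0 lowered of 63, where 1.94% and 3.08% of all genes were. Their changes lay between -0.76 and 0.76. Their summed signal differed more between the repeats, 43455 and 101880 in heated QK against 47222 and 98728 at 22 °C, than with heat.

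Heated Ws showed these increases too. In Ws 8 of the 9 mitochondrial genes and 15 of the 16 chromosome 2 genes were raised, against 3.19% of all genes in that line. The difference in response was called for 0 of 9 mitochondrial and 0 of 16 chromosome 2 genes. The fitted change was higher in QK for 9 of 9 and 16 of 16, with no called difference. It was higher for 3640 of the 6469 genes outside the organelle genomes and this stretch. The filter used QK arrays only, and most members of both groups passed it through the heated QK arrays alone. Higher changes in QK were thus favoured by the choice of genes. Leaving both groups out, 247 raised and 449 lowered probe sets were counted in QK. NDB2, a nuclear gene for an NADH dehydrogenase on the outer face of the inner mitochondrial membrane, was chosen after its values were seen. It had signals of 367.2 and 674.1 in heated QK, against 127.9 and 285.2 at 22 °C, and was raised in both lines (2.47-fold in QK and 2.34-fold in Ws).

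Folding helpers of the endoplasmic reticulum were the largest group of nuclear genes from the lists to rise in heated QK. Of 9 tested members 5 were raised and 0 lowered, against a background of 1.94% of genes raised. The median change was 1.25, against 0.00 over all probe sets. In Ws 3 of the 9 were raised, where 3.19% of all genes were, with a median change of 0.65. CRT1b, a calreticulin that holds glycoproteins until they fold, had signals of 4476.0 and 6978.3 in heated QK, against 520.0 and 1270.2 at 22 °C. The ranges did not overlap, and the change was log2 2.76 (SE 0.202, adjusted p = 0.00103).

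ATERDJ3B, a J-domain partner of the HSP70 in that compartment, had signals of 1518.5 and 2325.1 in heated QK, against 371.8 and 488.4 at 22 °C. It rose 4.29-fold (adjusted p = 0.00107). AT4G16660 and AT4G29520, also on the list, rose 8.54-fold and 8.47-fold. AT4G16660 had 1003.8 and 1245.2 in heated QK against 94.4 and 143.6 at 22 °C, and AT4G29520 had 810.3 and 1048.0 against 76.1 and 117.2. AT5G07340 was raised by log2 1.25 (adjusted p = 0.00763), with signals of 337.8 and 268.3 in heated QK against 140.9 and 97.7 at 22 °C. Without heat replicate 2 its adjusted p was 0.0522.

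The 2 membrane-bound bZIP factors on that list, BZIP28 and BZIP60, were not called. BZIP28 had signals of 280.2 and 276.7 in heated QK, against 238.6 and 272.1 at 22 °C. BZIP60 had 275.4 and 358.4 in heated QK, against 223.6 and 372.0 at 22 °C. Both changed by log2 0.12, and the array does not measure their processing or activity. BZIP53, a bZIP factor of another group that was chosen after its values were seen, was raised by log2 1.20.

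The response of this group differed between the lines in both directions, with 2 members higher and 1 lower in QK, where 0.458% and 1.46% of all genes were. CRT1b had signals of 893.7 and 1202.6 in heated Ws, against 622.4 and 1014.8 in Ws at 22 °C, so that its response was log2 2.38 higher in QK (adjusted p = 0.0107). The response of ATERDJ3B was 1.40 higher in QK (adjusted p = 0.0311). The difference for CRT1b was lost without heat replicate 1 or 2 (adjusted p of 0.0699 or 0.0584), and that for ATERDJ3B without any 1 of the 4 QK arrays (0.0663 to 0.12), with changes of unaltered sign. DER1, a derlin of the pathway that removes misfolded proteins from the compartment, went the other way. It had signals of 299.8 and 305.4 in heated QK, against 138.0 and 191.6 in QK at 22 °C, a change of 1.78-fold that is below the 2-fold minimum. In Ws it had 1958.4 and 2091.5 after heat, against 143.8 and 216.6, and its response differed from that of Ws by log2 -2.57 (adjusted p = 0.00428). A further DER1 probe set failed the filter and stayed dim in both lines. It had 8.5 and 9.2 in heated Ws, against 5.6 and 6.4 in Ws at 22 °C. AT4G16660 and AT4G29520 were raised in both lines, without a called difference in response.

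Auxin-related genes were raised in heated QK in 2 of 4 tested cases, with 0 lowered, where 1.94% and 3.08% of all genes were. GH3.3, an enzyme that joins amino acids to auxin, had signals of 360.2 and 486.0 in heated QK, against 80.2 and 101.3 at 22 °C (log2 2.03, adjusted p = 0.0025). In Ws it had 298.1 and 292.2 after heat, against 299.9 and 234.1 at 22 °C. The response was log2 1.89 higher in QK (adjusted p = 0.0242), and without any 1 of the 4 QK arrays the adjusted p was 0.0534 to 0.0954.

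IAA29, a repressor in auxin signalling, had signals of 251.7 and 268.7 in heated QK, against 51.4 and 37.8 at 22 °C (log2 2.20, adjusted p = 0.0104). Without heat replicate 1 or 2 its adjusted p was 0.0756 or 0.0527. In Ws IAA29 had 213.3 and 370.2 after heat, against 74.8 and 189.3 at 22 °C, a 2.18-fold change that was not called. Its difference in response between the lines was not called either (adjusted p = 0.468). The other tested members were WES1 (log2 0.93) and HAT2 (0.42), neither called in QK. IAA30, LBD29 and IAA20 were too dim in QK to be tested, with heated QK signals of 21.4 to 42.8.

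**Figure D2:**
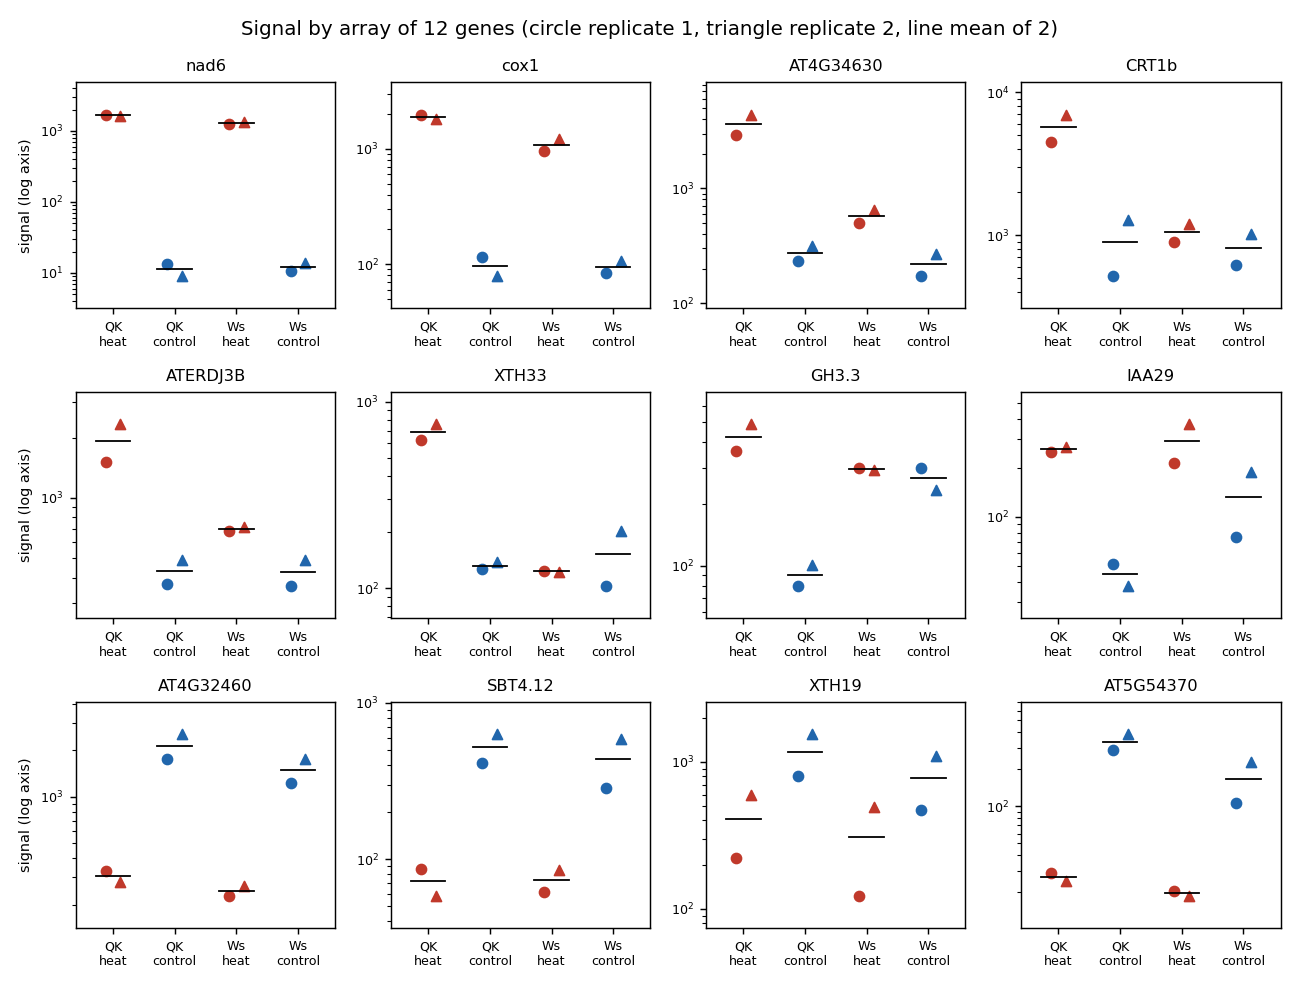
Signal of 12 genes on each array of QK and Ws, heat (red) and control (blue), on log axes that differ between panels. Circles are replicate 1, triangles replicate 2 and lines the mean of 2. nad6 and cox1 are high in both heated groups, CRT1b and XTH33 are highest in heated QK, and in the bottom row each heated array lies below the control array of its repeat.

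Genes that act on the cell wall split in direction. Xyloglucan enzymes cut and rejoin the polymers that tether cellulose, and expansins loosen the wall. Of 10 tested members 2 were raised and 4 were lowered in heated QK, where 1.94% and 3.08% of all genes were. XTH33 had signals of 621.2 and 756.7 in heated QK, against 126.9 and 137.8 at 22 °C (log2 2.24, adjusted p = 0.00261). XTH16 had 2062.3 and 1547.4 in heated QK, against 505.5 and 379.1 at 22 °C (log2 1.99, adjusted p = 0.00355). XTH33 had 124.2 and 122.4 in heated Ws, against 103.2 and 203.1 in Ws at 22 °C, and its response was log2 2.46 higher in QK (adjusted p = 0.0131). That difference was lost without control replicate 2 (0.0508), heat replicate 1 (0.077) or heat replicate 2 (0.0746).

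XTH19, XTH32, EXPA8 and EXPA7 were lowered in heated QK and in heated Ws, where 3.89% of all genes were lowered. XTH19 had signals of 221.5 and 593.9 in heated QK, against 802.0 and 1542.0 at 22 °C, a paired change of log2 -1.57. The groups came close because replicate 2 was brighter in both, and the fall stood out only within pairs. EXPA8 had 90.5 and 794.2 in heated QK, against 380.1 and 1285.9, with overlapping groups (log2 -1.29, adjusted p = 0.0411). The calls of this group rested on few arrays. XTH19 was lost without heat replicate 1 or 2 (adjusted p of 0.0577 or 0.0564), and XTH32 without heat replicate 1 (0.0519). EXPA8 was lost without control replicate 1 (0.183), control replicate 2 (0.0752) or heat replicate 1, where its change was -0.72 (adjusted p = 0.144). EXPA7, an expansin of root hairs, was lost without control replicate 1 (0.0827), control replicate 2 (0.103) or heat replicate 2 (0.122).

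The 10 genes that fell furthest in QK all fell in Ws too. AT5G54370 had signals of 28.5 and 24.9 in heated QK, against 287.5 and 385.3 at 22 °C (8.18-fold lower, log2 -3.03, adjusted p = 0.00195). AT4G13580 had 49.1 and 24.1 in heated QK, against 374.7 and 335.4 (log2 -2.86), and AT4G32460 had 330.8 and 281.5, against 1749.0 and 2544.1 (log2 -2.73). SBT4.12, a secreted protease of the subtilase family, had 85.9 and 58.5 in heated QK, against 411.0 and 630.3 at 22 °C (log2 -2.59, adjusted p = 0.00507). In every one of the 10, chosen for the largest called falls, both heated arrays were dimmer than both control arrays. AT5G54370 and AT4G17280 passed the filter only through the control arrays and so had to differ.

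The remaining members of the 10 were AT5G10130 (log2 -2.46), AT1G01300 (-2.20), AT3G54200 (-2.10), DRT100 (-2.09), AT4G17280 (-2.07) and AT5G12940 (-2.06). DRT100 had signals of 414.4 and 287.9 in heated QK, against 1256.6 and 1850.5 at 22 °C. For none of the 10 was the difference between the responses of QK and Ws called.

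Further wall and surface genes among those lowered were chosen after their values were seen. THE1, a receptor kinase that monitors the wall, had signals of 108.5 and 111.4 in heated QK, against 329.6 and 374.9 at 22 °C (log2 -1.55, adjusted p = 0.0053). CSLC04, which makes the backbone of xyloglucan, had 119.2 and 96.5 in heated QK, against 283.0 and 304.7 (log2 -1.33). GH9C2, an endoglucanase, had 74.6 and 169.1 in heated QK, against 248.9 and 888.1 (log2 -1.92). The subtilases ARA12 and SBT1.3 changed by log2 -1.53 and -1.48. For these genes the 2 groups did not overlap, which adds no support, since they were picked among called falls.

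Of the 449 probe sets lowered in QK, 297 were also lowered in Ws (66.1% of the QK list and 52.9% of the 561 lowered in Ws, itself 4.49% of those tested). Of the 275 raised in QK, 111 were also raised in Ws (40.4% of the QK list and 26.0% of the 427 raised in Ws, 3.42% of those tested). Without the mitochondrial and chromosome 2 probe sets, 84 were raised in both lines, of 247 raised in QK and 400 raised in Ws. The filter used QK arrays only and left out genes bright in heated Ws but dim in QK, such as AT1G71000. The Ws counts and the shares above hold for the probe sets that passed it. Without the filter 281 responses were called lower in QK, against 200 with it. No array was used in both lines, although the repeats are shared. For the 561 probe sets lowered in Ws the median change was -1.09 in QK and -1.25 in Ws, and the response was called different for 10. For the 427 raised in Ws, chosen on the Ws values, the median change was 0.38 in QK and 1.88 in Ws. The response was called lower in QK for 185 of these 427.

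The difference in response itself was called higher in QK for 69 of 12488 probe sets (0.553%) and lower for 200 (1.6%). Of the 164 probe sets raised in QK and not called in Ws, 46 had a called difference, so for 118 a difference between the lines was not shown. Without heat replicate 1 the 69 became 28 and the 200 became 106, and without heat replicate 2 the 69 became 18 and the 200 became 133. Without control replicate 1 or 2 the 69 became 38 or 44.

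**Figure D3:**
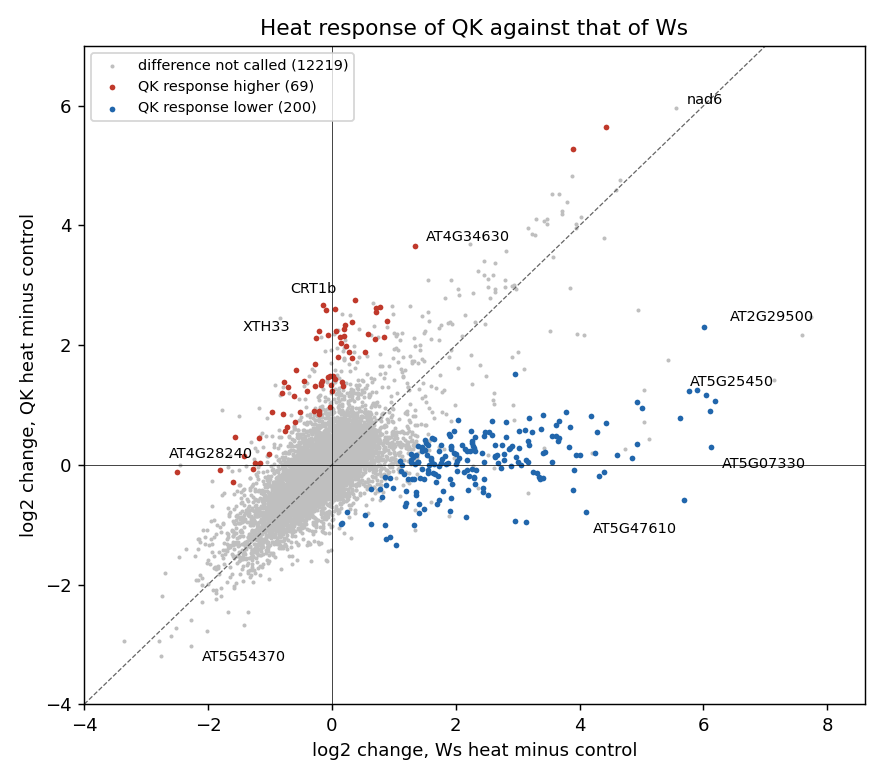
Change with heat, in log2(signal + 16), in Ws (x axis) and QK (y axis), 1 point per tested probe set, with the diagonal dashed. The 200 probe sets with a lower response in QK form a band to the right near 0 on the QK axis, and the 69 with a higher response lie above the diagonal. nad6 and AT5G54370 lie near the diagonal.

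Genes with a higher response in QK included AT1G36060, XTH33, AT4G28240, CRT1b, UGT76B1 and AT4G34630. AT4G34630 had signals of 2921.2 and 4392.7 in heated QK, against 234.6 and 312.3 at 22 °C, a 12.5-fold rise (adjusted p = 7.63e-05). In Ws it had 498.3 and 652.9 after heat, against 172.9 and 266.9. AT1G36060 had 617.8 and 350.0 in heated QK, against 89.2 and 44.0, a change of log2 2.60, and 0.06 in Ws. AT4G28240 differed because of its fall in Ws: it changed by log2 -0.12 in QK, with 940.0 and 890.0 after heat against 1148.1 and 862.8, and by -2.51 in Ws. The differences for AT1G36060 and AT4G28240 were lost without control replicate 2 (adjusted p of 0.0777 and 0.0558), heat replicate 1 (0.131 and 0.147) or heat replicate 2 (0.0795 and 0.0984).

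Defence and early stress regulators were raised in 2 of 4 tested cases, with 0 lowered, where 1.94% and 3.08% of all genes were. UGT76B1, a glucosyltransferase acting on salicylic acid and isoleucic acid, had signals of 639.1 and 877.6 in heated QK, against 155.7 and 164.5 at 22 °C. Its response was log2 2.37 higher than in Ws (adjusted p = 0.00939), where heated seedlings had 70.7 and 81.7 against 107.7 and 81.1. WRKY53, a transcription factor of defence and senescence, had 287.1 and 288.3 in heated QK, against 21.9 and 65.8 at 22 °C (log2 2.45, adjusted p = 0.0497). Its call was lost without control replicate 1 (log2 1.47, adjusted p = 0.217), heat replicate 1 (0.162) or heat replicate 2 (0.199). The uncalled members were CML38 (log2 -1.22) and STZ (-0.38), for which control replicate 2 stood far above replicate 1. PDF1.2, CML37 and WRKY22 were not tested, since at most 1 QK array exceeded the cut. WRKY22 had 33.8 and 33.0 in heated QK, against 36.6 and 150.3 at 22 °C, so that control replicate 2 stood alone.

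Small heat shock proteins, which bind unfolding proteins, gave 0 calls among 3 tested in QK. Over all genes 1.94% were raised and 3.08% lowered, so 0 of 3 does not set this list apart. Of 11 with a probe set 8 failed the filter, since at most 1 QK array exceeded the cut. The 3 tested members were AT4G21870, AT2G29500 and AT2G19310, of which 2 were raised in Ws. Over these 8 members, signals were 7.6 to 29.5 in QK at 22 °C, 9.4 to 37.9 in heat replicate 1 and 19.8 to 914.7 in heat replicate 2. Heated Ws had 14.9 to 12518 for the same genes. For these genes heat replicate 2 lay above heat replicate 1: the change was higher in pair 2 for 11 of 11. It was at least 2-fold for 7 in pair 2 and for 1 in pair 1. Among all 427 tested probe sets raised in Ws, the change in QK was higher in pair 2 for 65.8%. It was so for 76.9% of the 39 raised over 16-fold in Ws. Whether the signal in heat replicate 2 came from the QK seedlings themselves or from RNA of another sample was not tested. This also bears on the calls of Fes1A and AT5G25450.

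AT2G29500 had a signal of 56.7 in heat replicate 1 and 666.6 in heat replicate 2 of QK, against 34.2 and 32.8 at 22 °C. It passed the filter only through the heated arrays, so the direction of its change was fixed beforehand. It was not called (log2 2.17, SE 0.811, adjusted p = 0.11), and the change was log2 3.85 without heat replicate 1 (adjusted p = 0.00174) and 0.50 without heat replicate 2 (adjusted p = 0.125). In Ws it had 9653.7 and 8548.0 after heat, against 33.5 and 28.9. AT1G53540 had 18.2 in heat replicate 1 and 914.7 in heat replicate 2 of QK, against 11.3 and 10.4, and 9265.6 and 12518 in heated Ws. ATHSP22.0, a member of the endoplasmic reticulum, had 17.5 and 358.4 in heated QK, against 15.8 and 16.7 at 22 °C, and 3931.7 and 3564.3 in heated Ws. In both heated QK arrays these 3 genes stayed below both heated Ws arrays, as did 9 of the 11. The exceptions were AT4G21870, brighter in QK, and AT5G47600, with 18.4 and 19.8 in heated QK against 14.9 and 15.4 in heated Ws.

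**Figure D4:**
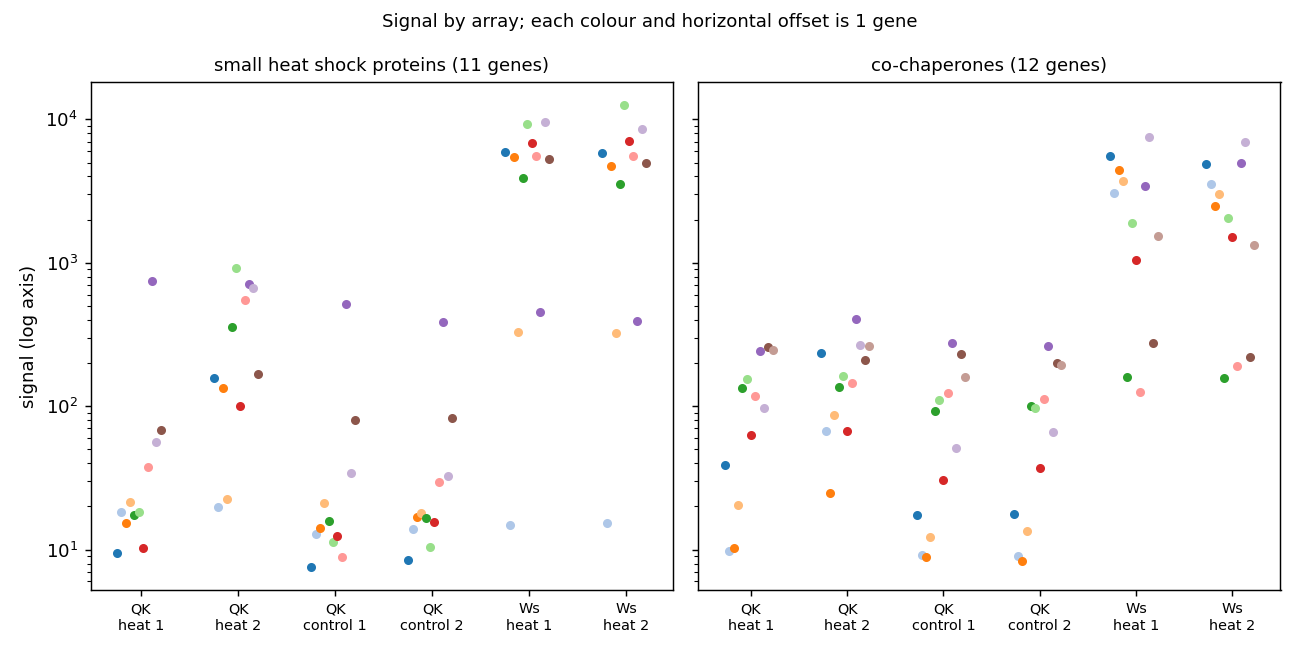
Signal on a log axis of the 11 small heat shock proteins (left) and 12 co-chaperones (right) with a probe set, on each heated and control array of QK and on the heated arrays of Ws. Each colour and horizontal offset is 1 gene. Many genes that are low in QK heat replicate 1 lie higher in heat replicate 2, and far higher in both heated Ws arrays.

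The list of HSP70, HSP90 and HSP100 chaperones had 2 tested genes, and 0 were called in QK. With 1.94% of all genes raised and 3.08% lowered, 0 of 2 does not set this list apart. Genes of the endoplasmic reticulum list, such as AT4G16660, were not counted here, so the 0 holds for this list only. Hsp70-2, a cytosolic HSP70, had signals of 41.9 and 69.0 in heated QK, against 54.0 and 51.2 at 22 °C, and 752.2 and 971.0 in heated Ws against 104.2 and 136.5. Its response differed from that of Ws by log2 -2.65 (adjusted p = 0.00372). AT3G09440 had 617.0 and 1313.8 in heated QK, against 430.7 and 653.5 (log2 0.75, adjusted p = 0.13), and 9194.7 and 10064 in heated Ws.

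Co-chaperones, which guide clients and nucleotides through the HSP70 and HSP90 cycles, gave 1 call in QK among 8 tested, 5 calls in Ws and 5 lower responses in QK. Over all genes 1.94% were raised in QK and 3.19% in Ws, and 1.46% had a lower response. Fes1A, a nucleotide exchange factor of HSP70, was the raised one. It had signals of 96.5 and 267.0 in heated QK, against 51.5 and 66.6 at 22 °C (log2 1.26, adjusted p = 0.0457), and 7557.8 and 6946.9 in heated Ws. The call was lost without control replicate 1 (0.109), control replicate 2 (0.165) or heat replicate 2 (log2 0.77, adjusted p = 0.198).

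HSA32, needed to retain acquired heat tolerance, had signals of 62.7 and 66.7 in heated QK, against 30.7 and 37.1 at 22 °C, and 1046.0 and 1505.0 in heated Ws. It passed the filter only through the heated QK arrays, so the direction of its change in QK was fixed beforehand. Its 1.62-fold change in QK passed the adjusted p (0.0299) but not the 2-fold minimum. Its response differed from that of Ws by log2 -3.73. The response minus that of Ws was log2 -2.69 for SGT1A, an HSP90 partner, -3.20 for AT3G12050, and -1.96 for Hop2, which links HSP70 to HSP90. The difference for Hop2 was lost without heat replicate 1 or 2 (adjusted p of 0.0668 or 0.0712). ATJ1, AT4G02450 and Hop1 were called in neither line. Hop3, AT5G48570, AT1G71000 and AT2G20560 were not tested, since at most 1 QK array exceeded the cut. AT5G48570 had 38.6 and 233.2 in heated QK, against 17.3 and 17.6 at 22 °C, and AT2G20560 had 20.4 and 87.1, against 12.3 and 13.4. Hop3 had 9.8 and 67.3 in heated QK, against 9.2 and 9.0 at 22 °C, and 3049.1 and 3568.8 in heated Ws.

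Among tested genes with a called difference, those whose response fell furthest behind Ws were AT5G07330, AT5G25450, AT5G47610, AT1G67360, Fes1A and AT2G19310, with differences of log2 -5.82 to -4.59. AT2G29500 had a difference of -5.42 that was not called. AT5G25450 had signals of 72.9 and 147.1 in heated QK, against 41.1 and 41.3 at 22 °C, and 6748.2 and 7552.0 in heated Ws. It passed the filter only through the heated QK arrays, so the direction of its change in QK was fixed beforehand. It was called raised in QK (log2 1.07, adjusted p = 0.0457), but not without control replicate 1 (0.129), control replicate 2 (0.154) or heat replicate 2 (log2 0.60, adjusted p = 0.167). AT1G67360 had 119.7 and 434.5 in heated QK, against 131.9 and 337.5, and 5654.7 and 5162.7 in heated Ws.

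AT5G07330 was also bright in QK without heat: it had signals of 238.8 and 599.3 in heated QK, against 136.2 and 658.3 in QK at 22 °C, and 2064.5 and 2155.1 in heated Ws against 13.4 and 15.7. Its difference was lost without heat replicate 1 or 2 (adjusted p of 0.0718 or 0.0549). AT3G09570, chosen after its values were seen, moved in opposite directions in the 2 lines. It had 113.0 and 152.6 in heated QK, against 316.1 and 334.8 at 22 °C (log2 -1.21, adjusted p = 0.00386), and its change in Ws was 0.94. The difference in response was -2.15 (adjusted p = 0.00382).

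Some genes changed by unequal amounts in the 2 repeats. The largest gaps between pairs, among genes with a mean change of at least 4-fold, were those of AT2G29500, AT5G62280, AT1G77640, AT2G07674, bZIP58 and WRKY53. AT5G62280 had signals of 1785.1 and 2098.1 in heated QK, against 677.8 and 151.8 at 22 °C (log2 2.52, adjusted p = 0.0753), and without control replicate 1 it was called (log2 4.02, adjusted p = 0.0129). AT1G77640 had 372.2 and 188.3 in heated QK, against 31.5 and 63.9 (log2 2.19, adjusted p = 0.0113). bZIP58, a bZIP factor, had 65.1 and 180.4 in heated QK, against 9.1 and 11.2, a change of log2 2.27. It passed the filter only through the heated arrays, so the direction of its change was fixed beforehand.

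**Figure D5:**
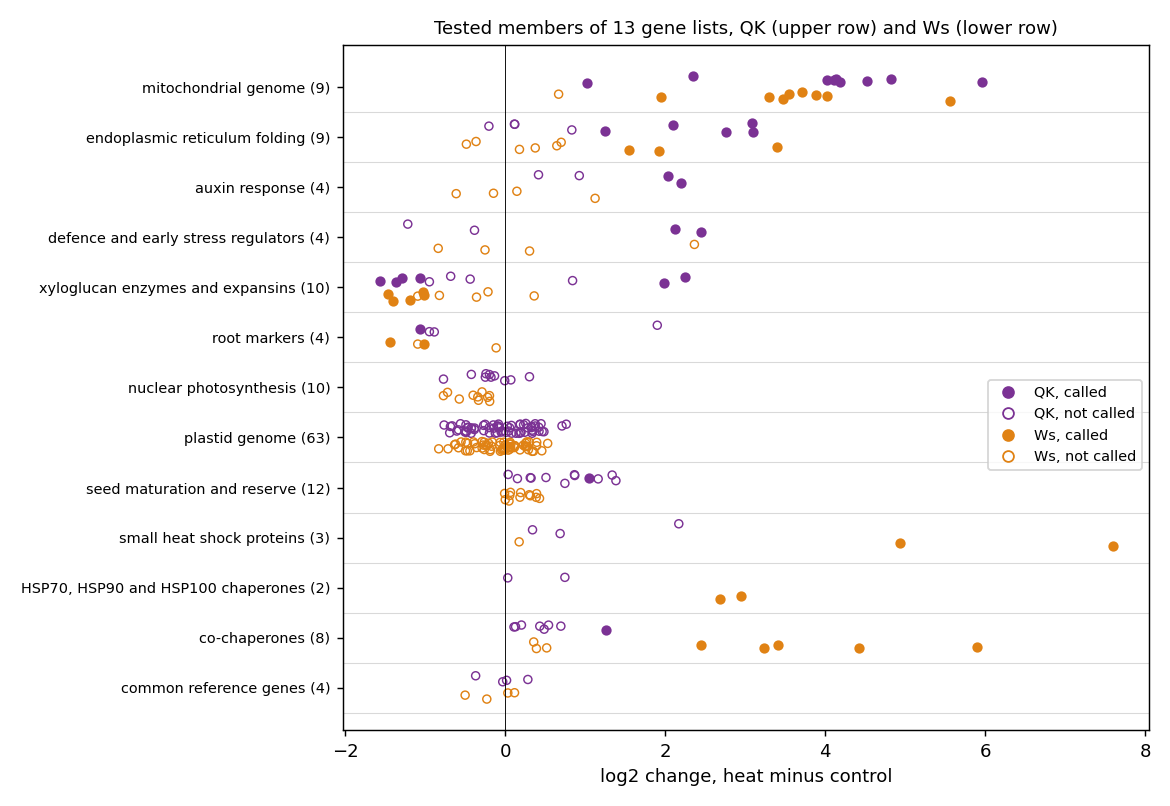
Change with heat, in log2(signal + 16), of each tested member of 13 gene lists in QK (purple, upper row) and Ws (orange, lower row), with filled points for called changes and the number of tested genes in brackets. Mitochondrial genes are to the right in both lines, and most co-chaperones and small heat shock proteins in Ws. Endoplasmic reticulum genes have a median of 1.25 in QK, with 5 of 9 raised, and 0.65 in Ws, with 3 raised.

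Markers of tissue and stage were read beside these changes. Nuclear genes of photosynthesis, high in green tissue, gave 0 raised and 0 lowered of 10, where 1.94% and 3.08% of all genes were. Their summed signals were 46262 and 51975 in heated QK against 55355 and 57328 at 22 °C. The largest changes were those of PRK, an enzyme of the Calvin cycle (log2 -0.77, adjusted p = 0.0109), and ATPC1, a subunit of the plastid ATP synthase (-0.42). Of 4 root markers 1 was lowered, EXPA7, where 3.08% of all genes were. The sums of the 4 were 4619.4 and 5082.1 in heated QK against 6267.4 and 8880.1 at 22 °C. In a whole seedling, fewer cells of a type and less RNA per cell cannot be told apart. JAL33, a lectin of that list, had signals of 878.9 and 1678.6 in heated QK, against 45.2 and 1759.8 at 22 °C, so that control replicate 1 stood alone.

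Genes of seed maturation and reserve use differed between the repeats of QK. The summed signals of the 12 tested members were 10164 and 14356 in heated QK, against 5668.9 and 11256 at 22 °C. Of these 1 was raised and 0 were lowered, where 1.94% and 3.08% of all genes were, and the median change was 0.81. AT2G18340 failed the filter, with 8.2 to 10.8 over the 4 QK arrays. LEA18, a late embryogenesis abundant protein, had 994.6 and 1784.8 in heated QK, against 387.5 and 1030.1 at 22 °C, and 9.7 and 20.9 in heated Ws. Its call (log2 1.05, adjusted p = 0.0398) was lost without control replicate 1 (log2 0.63, adjusted p = 0.155), heat replicate 1 (0.146) or heat replicate 2 (0.16). The part of these stage markers in the other changes was not tested.

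The remaining lists gave 0 raised and 0 lowered in QK, where 1.94% and 3.08% of all genes were. COR47, a dehydrin and the only tested gene for abscisic acid and dehydration, had signals of 4897.5 and 3471.7 in heated QK, against 4103.0 and 2887.0 at 22 °C. GSTU25, the only tested antioxidant gene, changed by log2 0.56, and GI, the only tested clock gene, by -0.06. Of 4 common reference genes 0 were called. AT2G28390 changed by log2 -0.37 and AT4G34270 by 0.28, while PEX4 and GAPC2 changed by -0.03 and 0.02. Heat shock factors outside class A1, cell division genes, jasmonate genes and genes of the mitochondrial dysfunction response had 0 tested members.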

How the data were processed

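The deposited values are signal intensities on a linear scale, processed with GCOS 1.4 per the submitters' processing notes. The summary algorithm, scaling and genome build are not given in the sources used here. Biotin-labelled cRNA from seedlings was hybridised to 1 array per sample, per the labels. The number of arrays, 2 per group, limits the precision. Groups follow the labels, and replicates are called biological there.

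A table of the platform's annotation gave exactly 1 gene for 10396 of 18465 probe sets, several for 398 and none for 7671. Genes were named from RefSeq (TAIR10.1, 10340 matched by gene ID and 17 by mitochondrial symbol), and those without a symbol there are given by locus. Where probe sets shared a gene, the brightest stood for it. Signals were transformed as log2(signal + 16) without further normalization. limma 3.58.1 in R 4.3.3 fitted 1 mean for each of the 4 Ws and QK groups plus the replicate number as a block, with variances following a mean trend (8 arrays, 3 residual degrees of freedom). Tests were two-sided and adjusted by Benjamini-Hochberg over 12488 probe sets.

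The series text says that the experiment was repeated, and the differences between replicates 2 and 1 correlated at 0.596 to 0.816 in all 6 pairs of the 4 groups, so the numbers were taken to pair the samples. Named genes were the 10 highest and 10 lowest called changes, the 6 highest and 6 lowest called differences from Ws, the 6 largest gaps between pairs, and up to 3 called members of each list and direction (the 2 largest changes where none was called). Members, lists and rules were chosen with earlier results of these data known. The script was tested on simulated data. When 1 array is left out, its group keeps 1 array, assumed to vary like the others. Other alternatives were the block, the arrays fitted, normalization, the pseudocount, the filter, the variance trend and the fold minimum. Sequences were not used here.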

Additional observations from a re-analysis of the deposited data

Results flagged for a closer look

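The following responses to heat differed between QK and Ws by the interaction test in limma, as the change in QK minus the change in Ws, in log2 with adjusted p-values under 0.05. Over all probe sets 69 were higher and 200 were lower in QK. Among the named genes the lowest called differences were those of AT5G07330 (-5.82), AT5G25450 (-5.12), AT5G47610 (-4.88), AT1G67360 (-4.73), Fes1A (-4.65) and AT2G19310 (-4.59). They were followed by HSA32 (-3.73), AT3G12050 (-3.20), SGT1A (-2.69), Hsp70-2 (-2.65), DER1 (-2.57), AT3G09570 (-2.15) and Hop2 (-1.96). Higher in QK were the responses of ATERDJ3B (1.40), GH3.3 (1.89), AT4G34630 (2.31), UGT76B1 (2.37), CRT1b (2.38), AT4G28240 (2.39), XTH33 (2.46) and AT1G36060 (2.54). Every group held 2 arrays, too few to test any array for standing apart. Of these 21 genes 13 kept a called difference as each QK array was left out.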

How the results depend on the processing

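Of the 51 called named genes 41 stayed called as each of the 4 QK arrays was left out, and 0 changed sign under any of the 18 alternatives it could be tested in. The fitted change can move only with normalization, the pseudocount or a left-out QK array. The block, the further arrays fitted, the filter, the variance trend and the fold minimum leave it as it is. No sign could change under those, so they do not bear on it. The filter at the 50th percentile left 48 of the 51 to test. Without the replicate block 165 probe sets were raised and 192 lowered in QK, with 9 higher and 91 lower responses, and 35 of the 51 genes stayed called. A block for each line gave 144 higher responses. Fitting all 12 arrays, with both Col-0 arrays that go against their labels, left 69 raised, 3 lowered, 5 higher and 3 lower, and the 10 arrays without them left the counts within 1.5 times. A pseudocount of 64 gave 218 lowered, and a filter at the 50th percentile gave 132 lower responses. Without a fold minimum 748 were raised and 1414 lowered, and with a 4-fold minimum 109 were raised, 21 lowered, 19 higher and 108 lower. As each QK array was left out, the counts ranged over 191 to 323 raised, 293 to 451 lowered, 18 to 44 higher and 106 to 156 lower. As an array was left out, 7 uncalled genes changed sign in QK. Their lowest and highest log2 changes were -0.51 and 0.27 for AT4G28240, -0.53 and 1.14 for AT5G07330, -0.46 and 0.68 for AT1G67360 and -0.16 and 0.85 for AT2G19310. They were -0.44 and 0.31 for GI, -0.21 and 0.27 for Hsp70-2 and -0.14 and 0.54 for AT3G12050. Where no construction of the alternative accounts for a change, the cause was not tested. Quantile normalization, centring on the 75th percentile, a pseudocount of 1, no filter and no variance trend kept all 4 counts within 1.5 times.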
